A study of Mus musculus with 2 samples.

Results

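The genes of MHC class I antigen presentation and the immunoproteasome were followed across the immune cells of the mouse colon. They are 9 of the 32285 genes listed in the files: H2-K1, H2-D1, B2m, H2-T23, H2-Q7, Tap1, Psmb8, Psmb9 and Nlrc5. They were taken by symbol as a list fixed by function. No measured value entered that rule, but earlier results of these data were known when the list was chosen. All 9 passed the count minimum in every lineage where the libraries were compared. The data are single-cell RNA-seq counts of CD45+ cells of the gut lamina propria, the connective tissue under the epithelium, in 2 libraries named CD163_NC and CD163_FL. CD45 is a surface protein of blood-derived cells. The series title speaks of wild-type mice and mice lacking CD163+ macrophages, CD163 being a scavenger receptor of tissue-resident macrophages. The labels do not say which library came from which mice, how the macrophages were removed, which strain was used, how old the animals were or how many were pooled, so the libraries keep their label names. There was 1 library per group. No test between conditions was therefore possible, each ratio compares these libraries only, and every interval covers counting error alone.

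MHC class I molecules show short peptides from inside the cell to CD8 T cells and to receptors of natural killer cells. The peptides are cut by the proteasome, carried into the endoplasmic reticulum by the TAP transporter and bound there by a heavy chain paired with beta-2 microglobulin. H2-K1 and H2-D1 encode classical heavy chains, H2-T23 and H2-Q7 encode non-classical ones (Qa-1 and a Qa-2 chain), and B2m encodes the shared light chain. Tap1 encodes a subunit of the transporter. Psmb8 and Psmb9 encode catalytic subunits that replace constitutive counterparts in the immunoproteasome, the form of the proteasome that interferon gamma induces and that most blood-derived cells carry. Nlrc5 encodes the transactivator of class I genes, which acts through a conserved promoter module with an X box and a Y box. In the gut, class I presentation is known for its part in the recognition of epithelial and myeloid cells by CD8 T cells, and Qa-1 for binding inhibitory receptors of natural killer cells.

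In the mm10 annotation (GENCODE M21), 7 of the 9 genes lie on chromosome 17, in the mouse MHC. H2-K1 (ENSMUSG00000061232, minus strand) spans 33996017 to 34000347. Psmb9 (ENSMUSG00000096727, minus strand, 34181987 to 34187764), Tap1 (ENSMUSG00000037321, plus strand, 34187553 to 34197225) and Psmb8 (ENSMUSG00000024338, plus strand, 34197721 to 34201454) follow each other, and the annotated spans of Psmb9 and Tap1 overlap at their starts on opposite strands. H2-D1 (ENSMUSG00000073411) spans 35262730 to 35267499 and H2-Q7 (ENSMUSG00000060550) spans 35439155 to 35443773, both on the plus strand, and H2-T23 (ENSMUSG00000067212, minus strand) spans 36029773 to 36032855. B2m (ENSMUSG00000060802) lies on chromosome 2 from 122147686 to 122153083, and Nlrc5 (ENSMUSG00000074151) on chromosome 8 from 94434356 to 94527272, both on the plus strand. Heavy chain genes have near-identical relatives, so the last 500 bases of each gene's longest annotated transcript were searched in 90-base windows for exact copies in transcripts of other genes. Only H2-T23 had any, in 55 of 411 windows (13.4%). How the authors' counting treated such reads, introns and strand is not given in the sources used here.

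The promoters of H2-K1, H2-Q7 and B2m are shown because they hold letters of the module through which Nlrc5 acts. RefSeq (GRCm38.p6) held a promoter for 8 of the 9 genes, all but Nlrc5. The stretches are the 250 bases before the RefSeq start, read 5′ to 3′ on the gene's own strand, at chr17:34000348-34000597 (H2-K1, minus strand), chr17:35438905-35439154 (H2-Q7, plus strand) and chr2:122147437-122147686 (B2m, plus strand). Those of the other genes overlap annotated exons and are not printed. Capitals mark each match to the motifs searched on both strands: TGACG (the core of the X2 box), CCAAT or its complement ATTGG (Y box), TTCNNNGAA (gamma-activated site) and the core of the interferon-stimulated response element, which is GAAA, any 2 bases and GAAA again.
H2-K1: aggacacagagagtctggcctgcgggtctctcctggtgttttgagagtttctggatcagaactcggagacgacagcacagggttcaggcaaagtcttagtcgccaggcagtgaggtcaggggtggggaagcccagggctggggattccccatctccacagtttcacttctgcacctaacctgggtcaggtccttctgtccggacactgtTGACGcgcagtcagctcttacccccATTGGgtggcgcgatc
H2-Q7: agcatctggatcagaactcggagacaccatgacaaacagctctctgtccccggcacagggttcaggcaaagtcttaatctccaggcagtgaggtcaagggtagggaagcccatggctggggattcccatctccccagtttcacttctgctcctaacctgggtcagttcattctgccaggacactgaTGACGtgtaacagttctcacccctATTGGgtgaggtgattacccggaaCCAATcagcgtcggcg
B2m: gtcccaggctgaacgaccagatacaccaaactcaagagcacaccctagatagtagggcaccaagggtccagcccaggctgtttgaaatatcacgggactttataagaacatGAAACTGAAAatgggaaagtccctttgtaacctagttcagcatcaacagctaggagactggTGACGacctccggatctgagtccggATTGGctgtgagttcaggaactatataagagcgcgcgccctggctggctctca

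A TGACG followed on the same strand by ATTGG, 20 to 30 bases on from start to start, stood in the promoters of H2-K1, H2-D1, H2-Q7 and B2m. The spacing was 25 bases in H2-K1, H2-D1 and B2m and 24 bases in H2-Q7. The same arrangement was found in 109 of 27025 promoters of this length (0.403%). The core of the interferon-stimulated element matched in B2m and H2-T23 (3.04% of all promoters), the gamma-activated site in Psmb8 (7.18%), CCAAT in 7 of the 8 (34.5%) and TGACG in 6 of the 8 (17.9%). The 3 heavy chain promoters with the arrangement were alike over their aligned bases, 87.4% identical between H2-K1 and H2-D1, 88.2% between H2-K1 and H2-Q7 and 85.8% between H2-D1 and H2-Q7, so they are not separate instances. A match is only a match of letters, and a promoter without a match may still hold the element in other letters.

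CD163_NC gave 9742 kept cells with 89308820 unique molecular identifiers (UMIs, counted molecules) and CD163_FL gave 13746 cells with 118734073 UMIs, at median depths of 6038 and 6464 UMIs. The libraries shared 49 cell barcodes. Cells were assigned to a lineage by 12 lists of 8 marker genes, none of them among the 9 genes. T cells that could not be placed as CD4, CD8 or gamma delta T cells were left out, a choice made after the gates were seen. These were 900 (9.24%) of the kept cells of CD163_NC and 1745 (12.7%) of those of CD163_FL. Cells that met the rule of no list, 2220 (22.8%) and 2447 (17.8%), were also left out. Levels (CPM) are the UMIs of a gene relative to all UMIs summed over a lineage, shown for lineages with at least 50 cells in a library. Ratios are log2 of CD163_FL over CD163_NC, in the 6 lineages with at least 100 cells in each library: macrophages and monocytes (318 and 861 cells in CD163_NC and CD163_FL), plasma cells (1498 and 1593), B cells (1905 and 973), CD4 T cells (1476 and 2303), CD8 T cells (771 and 2918) and group 2 innate lymphoid cells, ILC2 (132 and 327). The label of CD45+ was checked with its gene Ptprc. At least 1 Ptprc UMI was found in 95.9% and 97.2% of the macrophages and monocytes, but in only 26.7% and 43.2% of the 195 and 74 epithelial cells and in 21.8% of the 55 fibroblasts of CD163_FL. These cells are in the files despite the label, and their levels are given as such.

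The classical heavy chains and B2m were lowest in B cells among the 9 lineages seen in both libraries. H2-K1 was at 1194 CPM (95% Poisson interval 1174 to 1213) in CD163_NC B cells and 1355 (1322 to 1388) in CD163_FL B cells. Natural killer and group 1 innate lymphoid cells (NK/ILC1, 50 and 234 cells) came first by the mean of both libraries, with 2784 (2602 to 2975) and 3088 (2991 to 3187) CPM, although macrophages and monocytes were above them in CD163_NC at 2886. Between them stood CD4 T cells, macrophages and monocytes, ILC2, CD8 T cells, gamma delta T cells, plasma cells and epithelial cells, in that order of the mean of both libraries, and each overlapped the next. Only the B cells were clear of all the other lineages in both libraries.

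For H2-D1 the macrophages and monocytes came first by the mean of both libraries, at 2530 CPM (2468 to 2593) in CD163_NC and 1664 (1631 to 1697) in CD163_FL, overlapping NK/ILC1 at 2035 and 1911. ILC2 followed at 1898 and 1716 CPM, below both NK/ILC1 values. B cells were last at 881 and 985 CPM, and plasma cells, which descend from B cells, stood above them at 1298 and 1073. B2m kept much of this order. It was at 5707 CPM (5614 to 5801) and 4175 (4123 to 4228) in macrophages and monocytes, above ILC2 at 4080 and 3662 in both libraries. B cells were again last, at 1845 and 1982 CPM, below the epithelial cells at 2518 and 2077. Among lineages with enough cells in 1 library only, the 55 fibroblasts of CD163_FL had 4636 CPM of B2m (4438 to 4840), the highest in that library, and the 57 granulocyte progenitors of CD163_NC had 1671 (1589.6 to 1757), the lowest in theirs.

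The non-classical heavy chains did not share one order. H2-Q7 was highest in lymphoid cells other than B and plasma cells. NK/ILC1 led at 992 and 969 CPM in CD163_NC and CD163_FL, above CD8 T cells at 918 and 783, and ILC2, gamma delta T cells and CD4 T cells followed. Macrophages and monocytes had 619 and 350.3 CPM, epithelial cells 245 and 248, and B cells 265 and 224. All the T, NK and ILC2 values lay above all the macrophage, plasma, epithelial and B cell values. H2-T23, by contrast, was highest in macrophages and monocytes at 589.8 and 363 CPM, then in plasma cells at 402 and 317, and lowest in B cells at 187 and 127. Every lineage overlapped the next in that order.

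The immunoproteasome genes were highest in myeloid antigen-presenting and epithelial cells. Psmb8 was at 489 CPM (462 to 517) in macrophages and monocytes of CD163_NC and 281 (268 to 295) in those of CD163_FL, beside 317 and 384 in epithelial cells. B cells had the least, 138 (132 to 145) and 69.9 (62.6 to 77.9), overlapping NK/ILC1 at 157 and 78.7. Psmb9 was led by epithelial cells at 253 and 289 CPM, which overlapped macrophages and monocytes at 279.7 and 158. B cells were last by the mean of both libraries, at 105 and 64.6 CPM, although NK/ILC1 of CD163_FL had less, 48.2. The 118 dendritic cells of CD163_FL, professional antigen-presenting cells, stood above every lineage of either library for both subunits, at 780 CPM of Psmb8 (742 to 820) and 534 of Psmb9 (503 to 567).

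Tap1 followed the same cells rather than H2-K1 or H2-Q7. Dendritic cells of CD163_FL had 402 CPM (375 to 431), and macrophages and monocytes had 224 (206 to 244) in CD163_NC and 288 (274 to 302) in CD163_FL, above every other lineage seen in both. NK/ILC1, first for H2-K1 by the mean of both libraries, were last for Tap1, at 86.4 (56.9 to 126) and 85.2 (69.7 to 103) CPM. Nlrc5 was highest in T cells, with ILC2 at 135 and 228 CPM overlapping CD4 T cells. CD8 T cells had 236 CPM (223 to 250.5) and 239 (233 to 245), gamma delta T cells 209.7 and 201, and CD4 T cells 188 and 193. Epithelial cells had the lowest Nlrc5 levels of the lineages seen in both libraries, 28.2 (22.98 to 34.1) and 43.5 (35.1 to 53.4) CPM, although they were among the highest for Psmb8 and Psmb9. The 118 neutrophils of CD163_NC were at 19.0 CPM (11.04 to 30.3), an interval that overlaps that of the epithelial cells of CD163_NC. The 8 neutrophil markers alone summed to 302313 CPM in these neutrophils, which lowers the CPM of every other gene there.

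**Figure D1:**
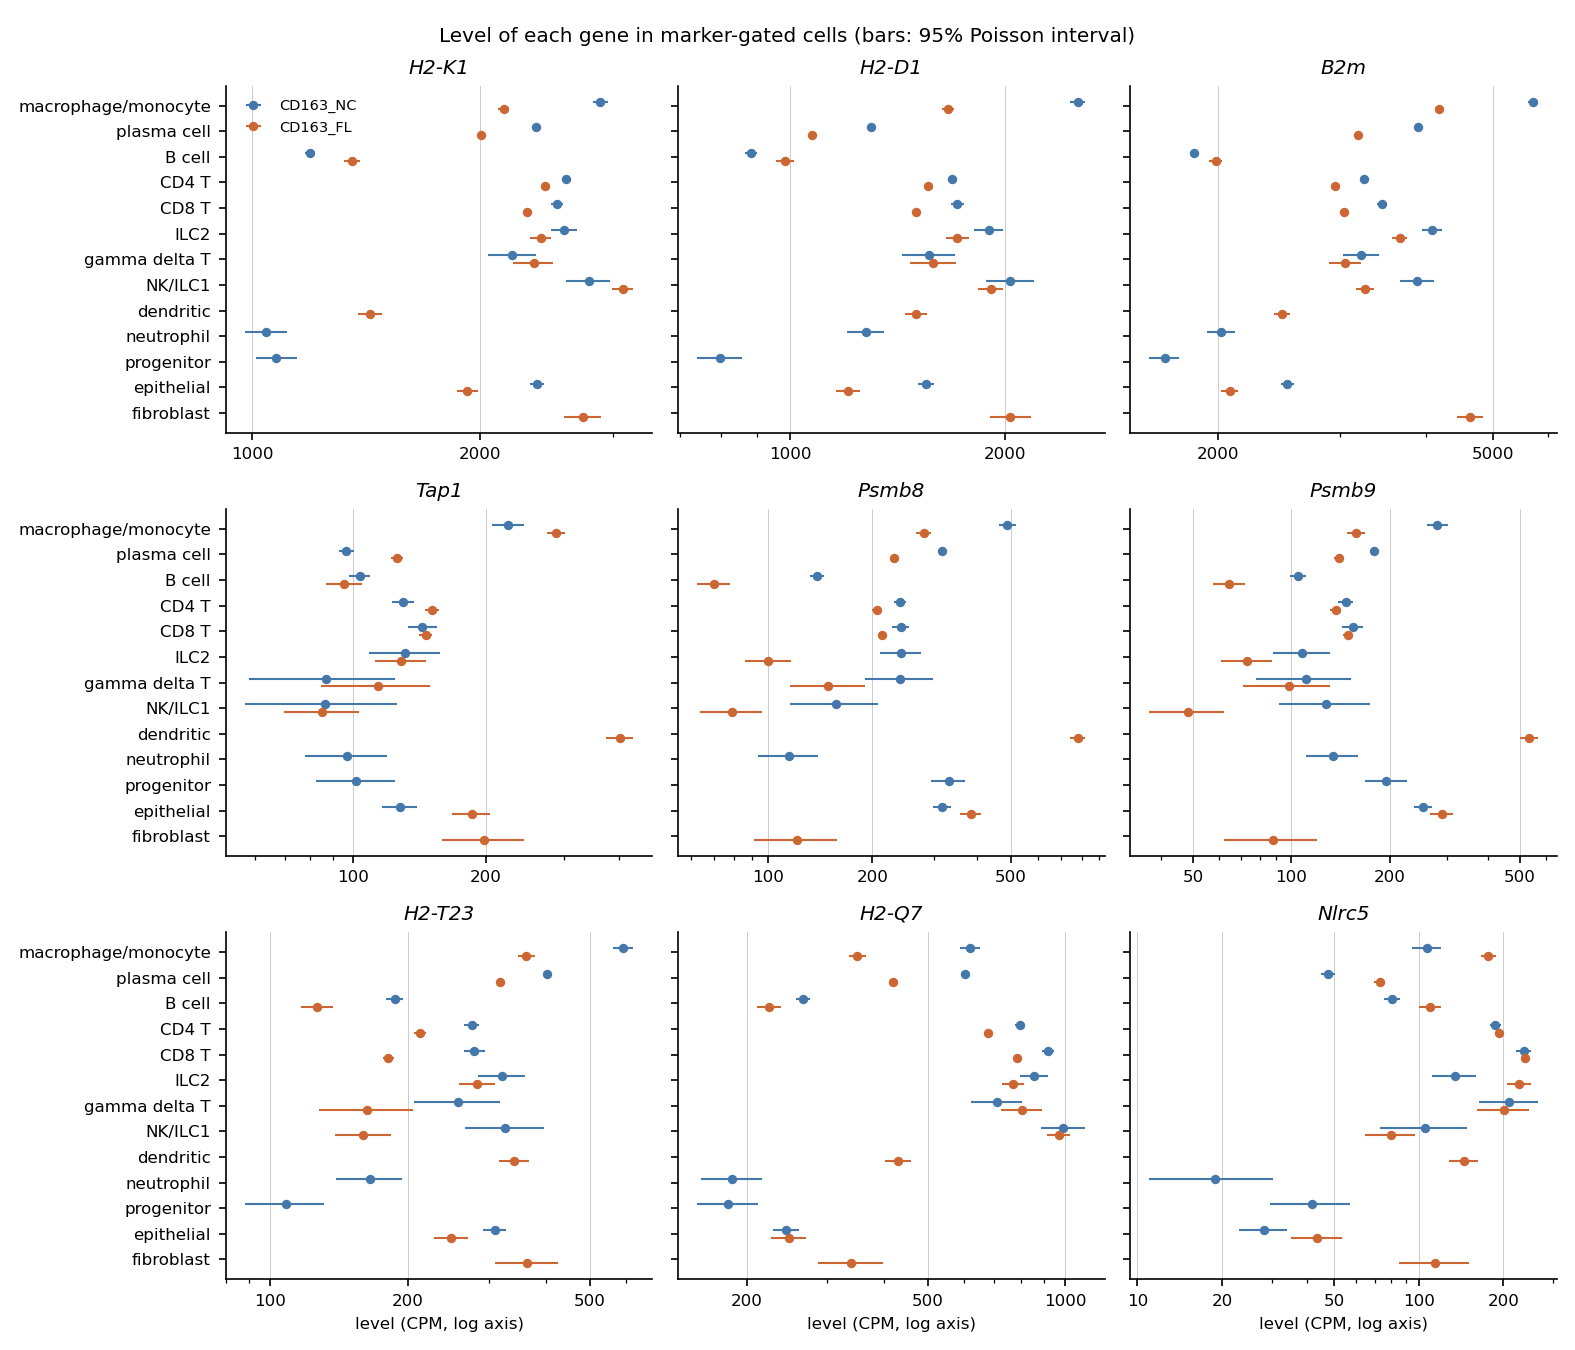
Levels (CPM, log axis) of the 9 genes in each marker-gated lineage of CD163_NC (blue) and CD163_FL (orange), with 95% Poisson intervals, drawn where a library had at least 50 cells of the lineage. By the mean of both libraries, B cells sit lowest among lineages seen in both for H2-K1, H2-D1, B2m, Psmb8, Psmb9, H2-T23 and H2-Q7. CD8 T cells sit highest for Nlrc5 by the same mean. Dendritic cells, drawn for CD163_FL only, are the highest points for Tap1, Psmb8 and Psmb9.

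Across the 22 lineage and library pairs, H2-K1, H2-D1 and B2m fell together, and so did Psmb8 and Psmb9. Pearson's r of log2(CPM + 1) was 0.82 between H2-K1 and H2-D1, 0.83 between H2-K1 and B2m and 0.85 between H2-D1 and B2m. It was 0.93 between Psmb8 and Psmb9, and 0.62 between Tap1 and each of these subunits. Between H2-K1 and Psmb8 it was -0.0017, between B2m and Psmb9 -0.090 and between Psmb9 and H2-Q7 -0.25. Nlrc5 reached 0.69 with H2-Q7, 0.46 with H2-K1 and with B2m, and -0.049 with Psmb8. H2-T23 kept to neither group, reaching 0.77 with B2m, 0.63 with H2-D1 and 0.56 with H2-K1. It also had 0.51 with Tap1, 0.50 with Psmb8 and 0.41 with Psmb9, but 0.31 with the other non-classical chain, H2-Q7. These are descriptions over pairs that share 2 libraries, so the points are not independent. Among 13350 genes with at least 10 CPM in a pair, those whose pattern was most like the mean of the 9 included Crip1 (r = 0.81), Frmd4b (0.81), Cxcl10 (0.79) and Ckb (0.79). Cxcl10 is a known interferon-induced gene, and Crip1 encodes a LIM protein.

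Between the libraries, 54 pairs of gene and lineage were compared. Of these, 9 were lower in CD163_FL by 1.5-fold or more, 3 were higher and 42 lay within 1.5-fold. Over all genes with at least 20 UMIs in the same 6 lineages, 20.5% were lower and 14.9% higher by that much. The lower count is thus near the background and the higher count below it. Neither was read as a result about the 9 genes as a set. The direction by gene was more even than the size: Psmb8, Psmb9, H2-T23 and H2-Q7 were below 0 in 6 of 6 lineages, and Nlrc5 was above 0 in 6 of 6. H2-K1, H2-D1 and B2m were below 0 in 5 of 6, the exception being B cells, where their log2 ratios were 0.18 (95% interval 0.14 to 0.23), 0.16 (0.11 to 0.21) and 0.10 (0.068 to 0.14). With the median of all genes set to 0 in each lineage, which moved macrophages and monocytes by 0.23 and no other lineage by over 0.1, Nlrc5 turned to -0.038 and Tap1 to -0.029 in CD8 T cells, and the directions of the heavy chains, B2m, Psmb8 and Psmb9 held. The lineages share their libraries, so these are not independent counts. The share of all genes with the same direction in 6 of 6 lineages was not taken. The median over all genes spanning under 5 kb, as Psmb8, H2-T23 and H2-Q7 do, was also below 0 in each lineage. That of genes of 50 kb and over, such as Nlrc5, was above 0 in each.

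Macrophages and monocytes held 6 of these 12 pairs. There 5 of the 9 genes were 1.5-fold or more lower in CD163_FL and 1 was higher, beside 33.7% lower and 18.7% higher of the 10343 genes tested. The median log2 ratio of the 9 was -0.60 and that of all genes was -0.23. H2-D1 went from 2530 to 1664 CPM, a log2 ratio of -0.60 (-0.65 to -0.56), just past 1.5-fold. H2-K1, at 2886 (2820 to 2953) and 2151 (2113 to 2188) CPM, had a ratio of -0.42 (-0.47 to -0.38), and B2m one of -0.45 (-0.48 to -0.42), both within 1.5-fold. The classical heavy chains and the light chain were thus all lower in CD163_FL by more than counting error on this scale.

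The non-classical chains and the immunoproteasome subunits were further down in these cells. H2-Q7 went from 619 to 350.3 CPM (log2 ratio -0.82, -0.92 to -0.73) and H2-T23 from 589.8 to 363 (-0.70, -0.80 to -0.60). Psmb8 went from 489 to 281 CPM (-0.80, -0.91 to -0.69), and Psmb9 from 279.7 (259 to 301) to 158 (148 to 169), at -0.82 (-0.96 to -0.68). For these 4 genes the whole interval lay past 1.5-fold. With the median of all genes in these cells set to 0, Psmb8 at -0.57 and H2-T23 at -0.47 lay within 1.5-fold. Psmb9 and H2-Q7, both at -0.60, were then just past it. Tap1, which shares its head-to-head start region with Psmb9, went the other way, from 224 to 288 CPM (0.36, 0.22 to 0.50), and the intervals of the pair did not meet. Nlrc5 went from 107 (94.6 to 120) to 177 (167 to 188) CPM, a log2 ratio of 0.73 (0.54 to 0.93). So in the unscaled ratios the transactivator's transcripts were higher in the library where the heavy chain transcripts were lower.

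The complement component C1q is a mark of mature tissue macrophages, so the ratios were also taken within C1q-positive and C1q-negative cells. C1q-positive cells had at least 2 UMIs of C1qa and C1qc together. They were 108 of the 318 gated cells in CD163_NC and 132 of 861 in CD163_FL. C1q-negative cells had no UMI of C1qa, C1qb or C1qc. Gated cells with C1q UMIs that missed the first rule were in neither group. In C1q-positive cells 5 of the 9 genes were lower and none was higher (28.1% and 22.4% of all genes), and in the 173 and 627 C1q-negative cells 5 were lower and 1 higher (31.2% and 21.9%). The 5 lower genes were H2-D1, Psmb8, Psmb9, H2-T23 and H2-Q7 in both kinds of cell. H2-D1 was at 2450 and 1478 CPM in C1q-positive cells (-0.73, -0.82 to -0.64) and at 2594 and 1715 in C1q-negative ones (-0.60, -0.66 to -0.54). Psmb8 had ratios of -0.71 (-0.91 to -0.50) and -0.87 (-1.01 to -0.73). These ratios stand beside -0.60 for H2-D1 and -0.80 for Psmb8 in the whole gate. Nlrc5 was at 91.6 and 103 CPM in C1q-positive cells (0.17, -0.25 to 0.58) and at 108 and 195 in C1q-negative cells (0.86, 0.60 to 1.12), and Tap1 had ratios of 0.020 (-0.26 to 0.30) and 0.44 (0.26 to 0.63). The difference between the 2 kinds of cell was not tested.

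**Figure D2:**
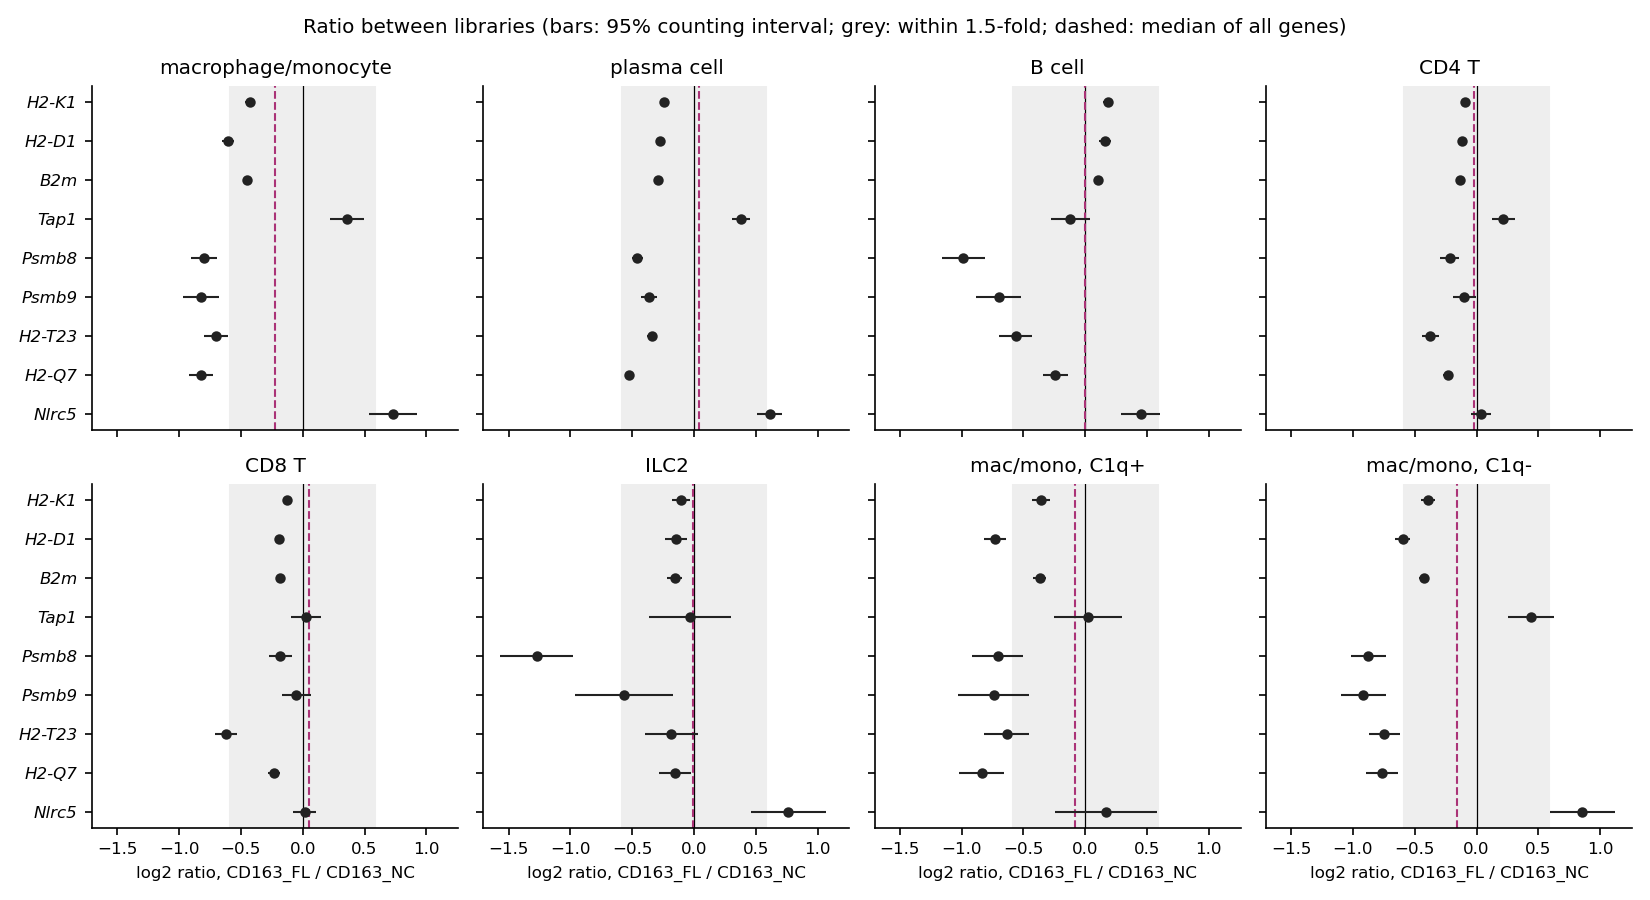
Log2 ratio of CD163_FL over CD163_NC for the 9 genes in 6 lineages and in C1q-positive (C1q+) and C1q-negative (C1q-) macrophages and monocytes, with 95% counting intervals; the grey band is within 1.5-fold and the dashed line the median of all genes. H2-D1, Psmb8, Psmb9, H2-T23 and H2-Q7 lie left of the band in all 3 macrophage panels, and Nlrc5 lies right of 0 in every panel.

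In the lymphoid lineages few of the 9 genes passed 1.5-fold. In B cells Psmb8 went from 138 to 69.9 CPM (-0.99, -1.16 to -0.81) and Psmb9 from 105 (99.3 to 111) to 64.6 (57.6 to 72.3), at -0.70 (-0.89 to -0.52). These were 2 of 9, beside 19.2% of all genes lower and 10.9% higher. H2-T23 in B cells went from 187 to 127 CPM (-0.56, -0.70 to -0.43), just within 1.5-fold. The B cells of CD163_FL thus had less message for the immunoproteasome subunits and slightly more for H2-K1, H2-D1 and B2m.

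ILC2 had the largest single ratio, Psmb8 at 242 (211 to 276) and 100.1 (85.6 to 116) CPM, a log2 ratio of -1.27 (-1.57 to -0.97). Psmb9 in ILC2 was at 108 and 73.0 CPM (-0.57, -0.96 to -0.17), and Nlrc5 at 135 (112 to 161) and 228 (206 to 252), 0.76 (0.46 to 1.07). So 1 gene was lower and 1 higher there, beside 19.8% and 18.1% of all genes. H2-K1, H2-D1 and B2m stayed within 0.16 of 0 on the log2 scale in ILC2. These heavy chain and light chain transcripts and those of Psmb8 therefore had different ratios in the same cells.

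T cells differed least between the libraries. No gene of the 9 passed 1.5-fold in CD4 T cells (19.3% of all genes lower and 10.7% higher), where the ratios ran from -0.37 (H2-T23, -0.44 to -0.30) to 0.22 (Tap1, 0.12 to 0.31). In CD8 T cells H2-T23 alone did, going from 279 (265 to 295) to 181 (176 to 187) CPM, -0.62 (-0.71 to -0.53), beside 19.6% lower and 16.9% higher. Nlrc5 in CD8 T cells, where it was most abundant, had a ratio of 0.016 (-0.076 to 0.11). Plasma cells had 1 gene past 1.5-fold, Nlrc5, at 47.6 (45.0 to 50.3) and 72.7 (69.6 to 75.9) CPM (0.61, 0.51 to 0.71), beside 14% of genes lower and 15.7% higher. H2-Q7 in plasma cells was at 604 and 420.3 CPM (-0.52, -0.56 to -0.49) and Tap1 at 96.6 and 126 (0.38, 0.31 to 0.46).

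The ratios moved with the length of the gene on the genome. In macrophages and monocytes the median log2 ratio over all genes was -0.65 for 1144 genes spanning under 5 kb, -0.45 for 3302 genes of 5 to 20 kb, -0.13 for 2954 genes of 20 to 50 kb and 0.14 for 2922 genes of 50 kb and over. The same order held in each of the 6 lineages, with the smallest range in CD4 T cells (-0.14 to 0.018) and CD8 T cells (-0.10 to 0.11). Of the 9 genes, Nlrc5 is by far the longest at 92917 bases, Tap1 spans 9673 bases, Psmb9 5778 and B2m 5398, and the other 5 span 3083 (H2-T23) to 4770 (H2-D1). With each ratio taken less the median of its span class, an alternative chosen after seeing the data, 2 of the 9 lower pairs stayed past 1.5-fold (Psmb8 in B cells at -0.61 and in ILC2 at -0.74) and none of the 3 higher pairs did. On that scale H2-D1 in macrophages and monocytes was at 0.044, H2-K1 at 0.22, Psmb9 at -0.37, Nlrc5 at 0.58 and Tap1 at 0.81. H2-K1 and H2-D1 also turned above 0 in plasma cells, CD4 T cells and ILC2, H2-Q7 in B cells and ILC2, H2-T23 and B2m in ILC2, and Tap1 in B cells and ILC2, while Nlrc5 turned to -0.090 and Tap1 to -0.014 in CD8 T cells. The directions of Psmb8 and Psmb9 held in all 6 lineages. The direction of the heavy chain ratios thus depends on the scale. Tap1 and Psmb9 belong to the same span class, so this scale cannot change the difference between them and says nothing about it. Other properties moved with the library as well: in macrophages and monocytes mitochondrial UMIs were 1.14% and 2.13%, ribosomal protein UMIs 10.3% and 7.30% and the nuclear RNA Malat1 13171 and 9868 CPM. Their part in the ratios was not tested.

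**Figure D3:**
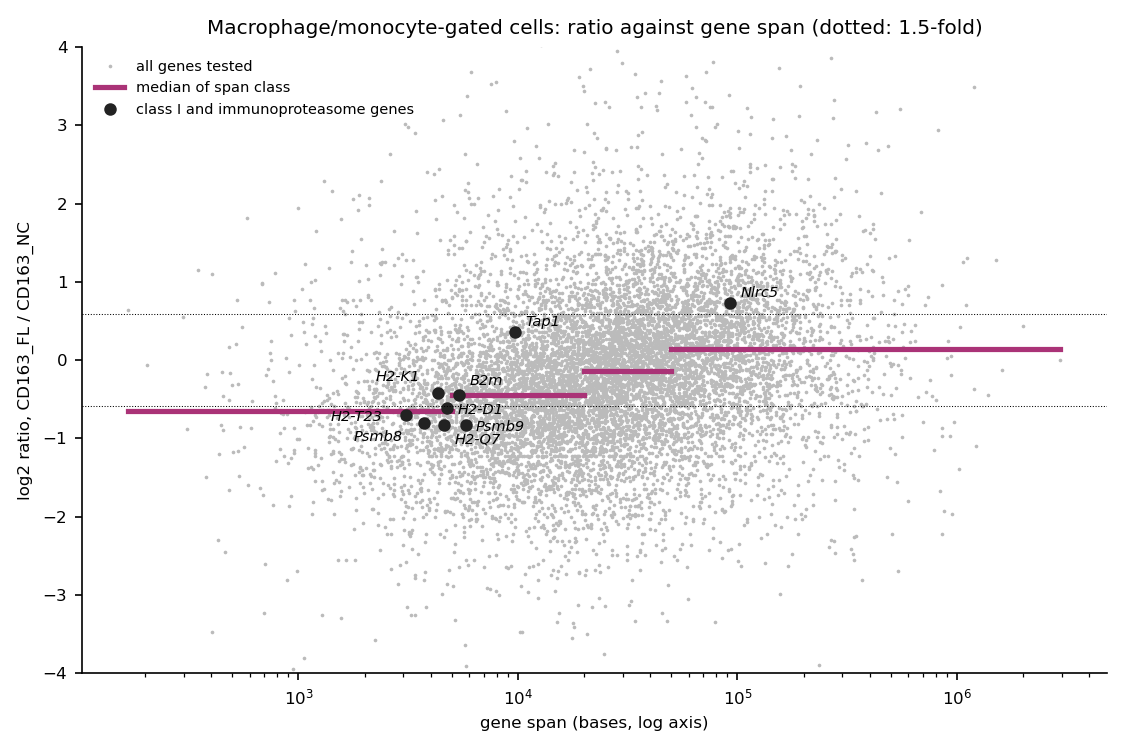
Log2 ratio of CD163_FL over CD163_NC in macrophages and monocytes against gene span (bases, log axis) for all genes tested (grey, shown between -4 and 4), with the median of each span class (bars) and the 9 genes (black). Short genes such as Psmb8 and H2-T23 lie near the -0.65 median of genes under 5 kb, while Nlrc5 and Tap1 lie above the medians of their classes.

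Each inducible subunit takes the place of a constitutive one, so its share of the summed UMIs of the pair was also followed. This is a share of counted molecules and compares lineages and libraries, not the abundance of the genes in a pair. The shares carry no span scaling. Where the genes of a pair differ in span, the trend with gene span can move the share between libraries, and its part was not tested. Psmb8, which replaces Psmb5, made up 84.0% (exact binomial 95% interval 82.0 to 85.8) of the pair in macrophages and monocytes of CD163_NC and 81.8% (80.0 to 83.4) in those of CD163_FL, so the lower Psmb8 level went with a lower Psmb5 level, 93.1 and 62.6 CPM. The share was 85.2% (83.5 to 86.8) in dendritic cells and 52.4% (42.4 to 62.4) in fibroblasts of CD163_FL, and 62.3% (57.9 to 66.6) in progenitors of CD163_NC. In ILC2 it was 82.3% (77.2 to 86.7) and 86.7% (81.2 to 91.1), although Psmb8 itself was lower in CD163_FL by more than 1.5-fold, since Psmb5 went from 51.8 to 15.3 CPM (-1.76, -2.51 to -1.04).

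In T and B cells the Psmb8 share was lower in CD163_FL, at 79.3% (77.8 to 80.8) and 72.0% (70.8 to 73.2) in CD4 T cells, 79.8% (77.6 to 81.8) and 70.9% (69.8 to 71.9) in CD8 T cells and 74.2% (72.3 to 76.0) and 67.5% (63.1 to 71.6) in B cells. In plasma cells it was 73.4% and 73.8%. For the T cells the constitutive partner had moved: Psmb5 was at 61.1 and 87.4 CPM in CD8 T cells (0.52, 0.34 to 0.70). With cells thinned to 1000 UMIs the B cell shares came to 76.7% and 75%, a smaller difference. Thinning also gives each cell equal weight, and equal weight alone brought the CD163_NC share to 76.4%.

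Psmb9, which replaces Psmb6, made up 69.9% (66.9 to 72.7) of its pair in macrophages and monocytes of CD163_NC and 56.8% (54.4 to 59.2) in those of CD163_FL, with Psmb6 at 121 and 120.3 CPM. Here the inducible subunit differed and the constitutive one did not beyond counting error (-0.0055, -0.20 to 0.19). The Psmb9 share was also lower in CD163_FL in B cells (61.4% and 49.4%), CD4 T cells (67.0% and 58.1%) and CD8 T cells (70.3% and 58.9%), and close in ILC2 (65.8% and 64.6%). Psmb10, the third inducible subunit, made up 70.1% (66.8 to 73.3) and 62.9% (60.6 to 65.1) of its pair with Psmb7 in macrophages and monocytes, 31.3% and 19.3% in B cells, and 56.1% and 37.5% in ILC2. Psmb10 itself was at 216 and 193 CPM in macrophages and monocytes (-0.16, -0.31 to -0.011), at 45.3 and 24.4 in B cells (-0.90, -1.20 to -0.60) and at 111 and 55.4 in ILC2 (-1.01, -1.43 to -0.59). In the unscaled ratios for B cells, all 3 inducible subunits were thus lower by 1.5-fold or more in CD163_FL. Psmb8 stayed so with equal weight per cell and with the span class medians set to 0. Psmb9 stayed so on neither of these settings, and Psmb10 was tested on neither. In ILC2, Psmb9 at -0.57 was just within 1.5-fold.

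**Figure D4:**
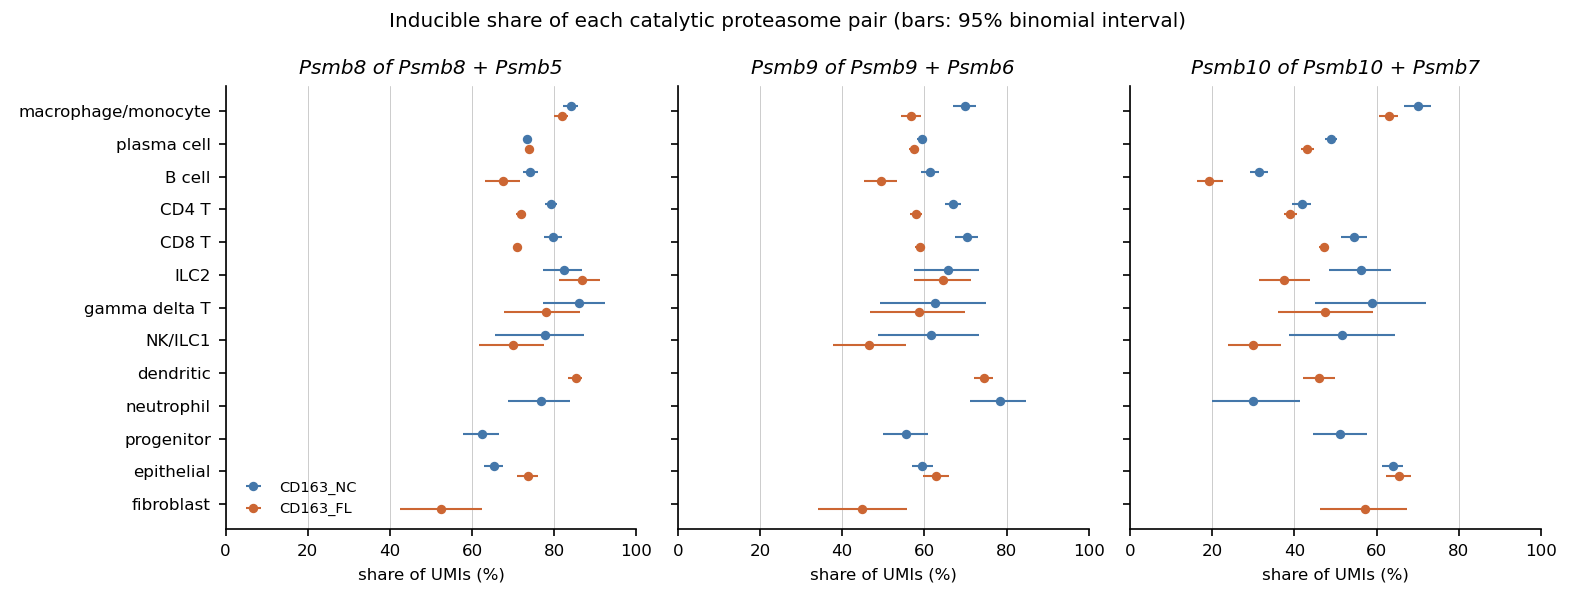
Share (%) of each inducible proteasome subunit in the summed UMIs of its pair, by lineage, in CD163_NC (blue) and CD163_FL (orange), with exact binomial 95% intervals. The Psmb9 share in macrophages and monocytes is 69.9% in CD163_NC and 56.8% in CD163_FL. The Psmb10 share is lower in CD163_FL in every immune lineage drawn for both libraries, with overlapping intervals in CD4 T and gamma delta T cells.

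Cell by cell, class I transcripts were spread over nearly all cells. With each cell thinned to 1000 UMIs (4 and 10 macrophages and monocytes were too shallow), the sum of H2-K1, H2-D1 and B2m had a median of 11 UMIs per cell in macrophages and monocytes of CD163_NC (quartiles 8 and 14) and 8 in those of CD163_FL (5 and 10). The sum was 0 in none of 314 cells of CD163_NC, which allows a share of up to 0.955%, and in 6 of 851 cells of CD163_FL. The quartiles were thus all lower in CD163_FL, and few cells of either library were without these transcripts at this depth. B cells had medians of 4 and 4, CD4 T cells 7 and 7, CD8 T cells 8 and 7, ILC2 8 and 8 and plasma cells 7 and 6.

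For the less abundant genes the share of cells with a UMI was compared at the same depth. Nlrc5 was found in 7.32% (exact binomial interval 4.70 to 10.8) of thinned macrophages and monocytes of CD163_NC and 15.7% (13.4 to 18.4) of those of CD163_FL, and unthinned in 49.7% and 56.0%. Within C1q-positive cells the thinned shares were 7.55% (3.31 to 14.3) and 3.85% (1.26 to 8.75), and within C1q-negative ones 8.77% (4.99 to 14.1) and 19.2% (16.2 to 22.6). Psmb8 was found in 34.1% (28.8 to 39.6) and 22.6% (19.8 to 25.5) of thinned macrophages and monocytes, and in 88.7% and 66.9% unthinned. No lineage here is known to lack these genes, so a background share from free RNA could not be set. In neutrophils, where the Nlrc5 CPM was lowest, 3.70% (1.02 to 9.21) of 108 thinned cells had an Nlrc5 UMI. Among epithelial cells of CD163_FL it was 0 of 68 thinned cells, which allows a share of up to 4.41%, and 48.6% unthinned. The median depth of the neutrophils before thinning was 6896.5 UMIs per cell, beside 7957.5 and 6683 in macrophages and monocytes.

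The other genes of the pathway, taken from lists fixed by function, were read in the same way. Their ratios are given without span scaling, that is, with no median of a span class taken off. Of 11 other class I heavy chains in the files, 6 could be tested in macrophages and monocytes and 3 of them were lower in CD163_FL (median -0.57, with -0.23 over all genes). Over all genes 33.7% were lower in these cells. The counts were 1 higher and 1 lower of 7 in plasma cells (15.7% and 14% of all genes), 1 lower of 6 in B cells (19.2%), 3 lower of 7 in CD4 T cells (19.3%), 3 lower of 6 in CD8 T cells (19.6%) and 1 higher of 5 in ILC2 (18.1%). With so few genes in a list, a count near the share of all genes is no result about the list. H2-T22, whose product is a ligand of some gamma delta T cells, went from 245 to 95.1 CPM (-1.36, -1.53 to -1.20), and H2-T24 from 22.1 to 5.23 (-2.08, -2.76 to -1.42). H2-T24 was also lower in plasma cells (-1.16, -1.40 to -0.92), B cells (61 and 3 UMIs, -3.01, -5.33 to -1.39), CD4 T cells (-1.96, -2.54 to -1.39) and CD8 T cells (-1.68, -2.43 to -0.90). H2-Q4, a Qa-2 family chain, was at 347 and 184 CPM in CD8 T cells (-0.91, -0.995 to -0.83) and 333 and 186 in CD4 T cells (-0.84, -0.91 to -0.77), and H2-Q2 at 7.45 and 1.12 in CD4 T cells (-2.74, -3.51 to -2.02). Among 3 class I-like molecules tested in macrophages and monocytes, 2 were lower, beside 33.7% of all genes: Hfe, which regulates iron uptake, went from 39.8 to 6.41 CPM (-2.64, -3.21 to -2.08) and Fcgrt, the heavy chain of the neonatal Fc receptor, from 32.7 to 11.1 (-1.56, -2.05 to -1.07). Mr1, which presents vitamin metabolites, was lower in B cells (35 and 2 UMIs, -2.79, -5.89 to -0.83) and CD8 T cells (-1.80, -2.58 to -0.997).

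Without span scaling, the peptide loading and trimming genes did not follow the heavy chains. The direction of the heavy chain ratios depended on that scaling, as given above, and the contrast was not tested on the other scale. Of 7 tested in macrophages and monocytes, none was lower by 1.5-fold and 1 was higher (33.7% and 18.7% of all genes), with a median of 0.19. That gene was Tap2, the partner of Tap1 in the transporter, at 97.8 and 159 CPM (0.70, 0.50 to 0.91), and in C1q-positive cells at 94.8 and 195 (1.04, 0.68 to 1.41). Tapbp, which encodes tapasin and holds class I molecules near the transporter, was at 371 and 423 CPM (0.19, 0.079 to 0.30). Tap1 itself stayed within 1.5-fold in these cells (0.36) and was at 0.020 (-0.26 to 0.30) in the C1q-positive ones. None passed 1.5-fold in plasma cells, B cells, CD4 T cells or ILC2. Over all genes, 14% were lower and 15.7% higher in plasma cells, and 19.2% and 10.9% in B cells. These shares were 19.3% and 10.7% in CD4 T cells and 19.8% and 18.1% in ILC2. In CD8 T cells 2 of 7 were higher, beside 16.9% of all genes, among them the chaperone Canx (130 and 229 CPM, 0.82, 0.70 to 0.94).

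None of 10 constitutive proteasome genes passed 1.5-fold in macrophages and monocytes (median -0.31), plasma cells or B cells. Over all genes, 33.7% were lower and 18.7% higher in macrophages and monocytes. These shares were 14% and 15.7% in plasma cells and 19.2% and 10.9% in B cells. Psmb7, the partner of Psmb10, was at 91.9 and 114 CPM in macrophages and monocytes (0.31, 0.092 to 0.53). In ILC2 6 of 10 were lower (median -0.67), beside 19.8% of all genes, with Psmb5 as given above, Psma1 at -1.15 (-1.69 to -0.61), Psma2 at -1.36 (-1.75 to -0.96) and Psma4 at -1.26 (-1.81 to -0.70). In CD8 T cells 4 of 10 were higher (median 0.52), beside 16.9% of all genes, and in CD4 T cells 1 of 10 was, beside 10.7%. The ILC2 of CD163_FL thus had lower levels of constitutive genes beside those of Psmb8 and Psmb10. Of Psmb10, the PA28 genes and the maturation factor Pomp, 0 of 4 passed 1.5-fold in macrophages and monocytes. Over all genes 33.7% were lower there and 18.7% higher. Of the same genes, 3 of 4 were lower in ILC2 (19.8% of all genes) and 1 of 4, Psmb10, in B cells (19.2%). Within C1q-negative macrophages and monocytes Psme1, a PA28 subunit, was lower (567 and 340.3 CPM, -0.74, -0.87 to -0.61).

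Of 16 regulators tested in macrophages and monocytes, 2 were higher and 4 lower (median -0.21), beside 18.7% and 33.7% of all genes, so neither count stands above the background. Jak2, a kinase of the interferon gamma receptor, went from 276 to 655 CPM (1.25, 1.13 to 1.36), and Irf1, an interferon-induced activator of class I genes, from 277 to 422 (0.61, 0.48 to 0.73). Stat2, a transcription factor of type I interferon signalling, went from 141 to 65.4 CPM (-1.11, -1.32 to -0.90) and Irf2 from 156 to 68.8 (-1.18, -1.39 to -0.98). In T cells Irf1 lay on the other side, at 296 and 122 CPM in CD8 T cells (-1.28, -1.37 to -1.19) and 191 and 108 in CD4 T cells (-0.81, -0.91 to -0.72), while B cells had 94.8 and 242 (1.35, 1.23 to 1.47). In all, 3 of 16 were higher and 6 lower in CD8 T cells (16.9% and 19.6% of all genes), 1 and 4 in CD4 T cells (10.7% and 19.3%), and 3 and 1 in B cells (10.9% and 19.2%), where Ifnar1 (0.84, 0.64 to 1.04) and Jak2 (0.70, 0.60 to 0.79) were also higher.

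Other regulators in T cells lay on both sides. Stat2 (-1.16, -1.35 to -0.96), Irf9 (-0.77, -0.95 to -0.59) and the feedback inhibitor Socs1 (-1.78, -1.97 to -1.59) were lower in CD8 T cells of CD163_FL, and the receptor chain Ifngr1 was higher (470 and 954 CPM, 1.02, 0.96 to 1.09), with Ifngr2 lower (-2.09, -2.53 to -1.65) and Jak2 higher (0.68, 0.59 to 0.77). CD4 T cells had the same directions for Stat2 (-0.92, -1.08 to -0.75), Irf9 (-0.85, -1.01 to -0.69), Socs1 (-1.39, -1.56 to -1.23) and Ifngr1 (0.91, 0.86 to 0.96). The class I heavy chains H2-K1 and H2-D1 in these T cells lay within 0.19 of 0. Plasma cells had 4 of 16 regulators higher and none lower, beside 15.7% and 14% of all genes: Irf8 (1.43, 1.31 to 1.55), Ifngr1 (1.00, 0.80 to 1.21), Ifnar1 (1.03, 0.90 to 1.16) and Jak2 (0.82, 0.75 to 0.89). In ILC2 5 of 14 were higher and 1 lower, beside 18.1% and 19.8%, with Ifngr1 at 0.95 (0.71 to 1.19) and Jak2 at 0.78 (0.66 to 0.90).

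The transcript of interferon gamma, a known inducer of class I genes, was at 426 CPM in CD8 T cells of CD163_NC and 161 in those of CD163_FL, at 465 and 374 in CD4 T cells, and at 752 and 344 in NK/ILC1. In macrophages and monocytes it was at 4.34 and 7.08 CPM (11 and 42 UMIs). Markers of T cells, summed over their list of 8, were at 39.5 and 81.5 CPM in the macrophage gate, those of B cells at 42.2 and 20.7 and those of neutrophils at 291 and 136, against 4569 and 5538 for the gate's own list. Their part in the ratios was not tested.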

How the data were processed

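The data are droplet-based single-cell RNA-seq of CD163_NC and of CD163_FL, each a group of 1 library. The authors deposited UMI counts per gene and barcode, not normalized. Per the file headers these were written by Cell Ranger 7.1.0, and the submitters' processing notes name mm10 and Seurat 4. Whether free RNA was corrected for, or introns counted, is not stated there.

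From 10390 barcodes of CD163_NC and 15270 of CD163_FL, those with under 500 UMIs or 200 genes (8 and 22) or over 10% mitochondrial UMIs (370 and 869) were left out, as were Scrublet's doublet calls (271 and 641, 2.61% and 4.20%, below the 8.31% and 12.2% expected, so some will remain). A cell took the marker list with the most detected genes if it had at least 3 and at least 2 times those of any other list. Levels are CPM of summed UMIs with exact Poisson 95% intervals, and ratios have exact conditional binomial 95% intervals, for genes with at least 20 UMIs over both libraries. A group of 1 library allows no test, so there are no p-values. A count of 0 was read as allowing 3.

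All 9 genes are named in the text. From the pathway lists those whose ratio interval lay past 1.5-fold are named, plus Psmb10, Tap2, Tapbp, Irf1, Psmb5, Psmb6 and Psmb7. 1 gene that was to be named is not reported here. The genes, lists and gates were chosen with earlier results of these data known. Scripts were tested on simulated data. Python 3.11.15, numpy 2.4.6, scipy 1.17.1, pandas 2.3.3 and scanpy 1.11.5 were used. Alternatives covered scaling, count minimum, gates, doublets, quality limits, depth per cell, weight of cells, free RNA and clustering.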

Additional observations from a re-analysis of the deposited data

How the results depend on the processing

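No paired analysis was possible because there was 1 library per group, and for the same reason no library could be left out. Of the 12 pairs of gene and lineage past 1.5-fold, all 12 stayed so with a minimum of 50 UMIs or none, with at least 2 or 4 markers, with doublets kept, with a 5% mitochondrial limit, with a higher minimum depth per cell and with 5% free RNA subtracted. With thinned cells 11 stayed, with equal weight per cell 11, and with Leiden clusters 10. With the median ratio of all genes set to 0, 8 stayed, and the lower genes in macrophages and monocytes went from 5 to 2. With the median of each gene span class set to 0, chosen after seeing the data, higher pairs went from 3 to 1 (Tap1 in macrophages and monocytes), lower pairs from 9 to 2 and lower genes in macrophages and monocytes from 5 to 0, and H2-D1 there turned to 0.044. The cause was not tested. The Psmb8 share with thinned cells was 85.9% in macrophages and monocytes, 76.7% in B cells and 81.0% in CD4 T cells of CD163_NC, and 75% in B cells, 73.5% in CD4 T cells, 69.5% in CD8 T cells and 78.1% in ILC2 of CD163_FL. For B cells of CD163_NC it was 76.4% with equal weight per cell and 71.2% with Leiden clusters, and for CD8 T cells of CD163_NC 77.5% with Leiden clusters. Depth limits Tap1, Psmb9 and Nlrc5 in NK/ILC1 and gamma delta T cells of CD163_NC, where each rested on 27 to 70 UMIs.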
